A study of Mus musculus with 8 samples.

Results

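The comparison described here sets 2 livers that carried hepatocellular carcinoma (HCC, the main primary cancer of the liver) against 3 livers without detectable tumour, all from mice whose diet had been reversed. These are 5 of the 8 single-nucleus RNA libraries of the series and 57050 of its 79446 nuclei with at least 300 detected genes. The libraries were assigned to the groups by their labels. All mice were male DIAMOND mice, a cross of 129A1/SvIm and C57BL/6J that develops fatty liver disease and liver tumours on a diet rich in fat and sugar. All 5 were fed this Western diet, a high-fat chow with fructose and glucose in the drinking water, for 36 weeks and were then returned to a standard chow. The tumour group is called RD tumour (n = 2 mice) and the tumour-free group RD no tumour (n = 3 mice), with RD for reversed diet. No genetic change or drug separates the groups. The remaining 3 libraries (WD tumour, Western diet throughout, with HCC) entered the statistical model to estimate the spread between mice, and their levels are given for a few genes. The labels give 48 weeks as the age at the end, whereas by the series text the mice were 2 months old when the diets began and the WD tumour mice ate Western diet for 48 weeks, which does not add up. Livers were snap-frozen, and the labels do not say whether a sequenced piece held tumour tissue or liver beside it.

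Hepatocytes, the main cells of the liver, make plasma proteins, cholesterol and bile acids, and their drug-metabolising and secreted-protein genes are set in part by growth hormone and by the circadian clock. Cholesterol is built from acetyl-CoA through the mevalonate pathway, whose enzymes share control by the transcription factor SREBP2 and are switched on when cells run short of sterol. Ductular cells of the bile tree, stellate cells that lay down matrix, and macrophages often expand around liver tumours. The values below come from sums over all nuclei kept in a library, which mix all these cell types. Fewer nuclei of a type and less RNA per nucleus therefore cannot be told apart in any of them.

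RD tumour 1 stood apart from the other 4 livers in several ways. It had exactly 20000 barcodes, all of which passed the filter, against 6048 to 10376 nuclei kept in the other libraries. Its whole-library profile correlated with those of the other 4 at 0.811 to 0.890 across genes, whereas these 4 correlated with each other at 0.938 to 0.983 (log2 CPM plus 1, where CPM is a gene's UMIs scaled to a common library total, as a description without a test). Kept UMIs (unique molecular identifiers, 1 per captured RNA molecule) totalled 22657707 to 34363108 per library. The median per nucleus was 1299 UMIs in RD tumour 1 and 1120 in RD tumour 2, below the 1908 to 2656 of the tumour-free livers. Mitochondrial transcripts made up 1.21% to 2.56% of the UMIs, and any pair of the 5 libraries shared 15 to 62 barcodes. Alb, the hepatocyte gene for albumin, was abundant in every liver, at 8006 and 9878 CPM in RD tumour 1 and 2 and at 4142, 13540 and 12190 CPM in RD no tumour 1, 2 and 3. RD no tumour 1 differed from the other tumour-free livers as well, with 10500 CPM of the acute-phase gene Saa1 against 342.8 and 1049. Because of these differences, each gene is given for both tumour livers separately, and a shared difference is stated only where both lay on the same side.

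No gene passed an adjusted p of 0.05 between RD tumour and RD no tumour. The test was edgeR's quasi-likelihood F test on counts summed per liver, with Benjamini-Hochberg adjustment over 19087 genes, and the lowest adjusted p was 0.612. At an unadjusted p under 0.05 it listed 862 genes higher (4.52%) and 417 lower (2.18%) in the tumour livers. DESeq2, another count model run on the same sums, called 34 genes higher and 30 lower. The edgeR result rested on the inclusion of both tumour livers: without RD tumour 2 it called 2128 genes higher and 2441 lower, and without RD tumour 1 it called 11 higher and 0 lower, in each case assuming that the lone tumour liver varied like the other groups. With 2 livers against 3, an exact two-sided permutation test of a single gene cannot go below p = 0.2.

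The descriptions below therefore count genes for which both tumour livers lay outside the range of the 3 tumour-free livers, in CPM scaled by edgeR's TMM factors. Both were above the range for 1393 genes (7.3%), both below it for 1583 (8.29%), and on opposite sides of it for 3212 (16.8%). Scaled by library totals without TMM, 2077 were above and 1114 below, and 15 of the sterol genes described next were below. The log2 ratio of a tumour liver is its log2(CPM + 1) minus the mean of the 3 tumour-free livers, a scale that understates the change of low genes. It lay beyond 1 in either direction for 35.3% of genes in RD tumour 1 and for 3.13% in RD tumour 2, and 4.79% to 12.4% of genes lay that far from the other 2 when each tumour-free liver was treated in the same way. By this measure RD tumour 2 differed no more than the tumour-free livers did among themselves, whose own reference was a mean of 2 livers and not of 3. The ratio exceeded 1 in both tumour livers for 54 genes (0.283%) and was below -1 in both for 161 (0.844%). Without RD no tumour 1 the counts above and below the range were 3438 and 3156, and without RD no tumour 2 they were 2509 and 2589.

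**Figure D1:**
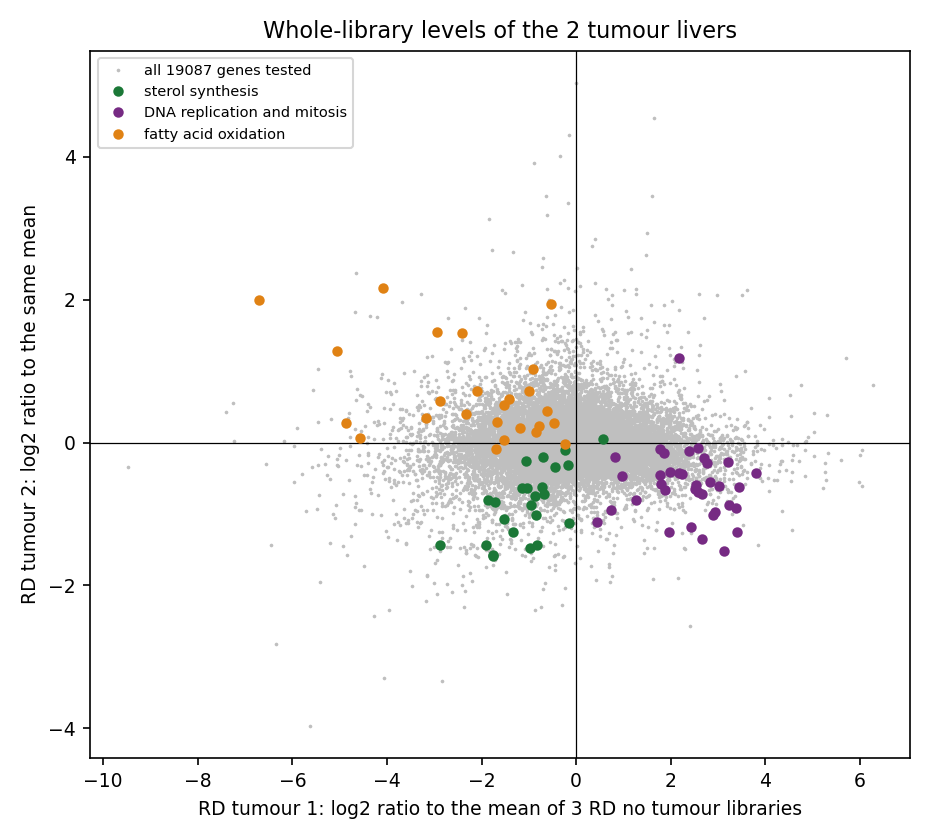
Each grey point is 1 of 19087 genes, with its log2 ratio to the mean of the 3 RD no tumour livers in RD tumour 1 (x axis) and in RD tumour 2 (y axis); coloured points are members of 3 gene lists. Sterol synthesis genes lie mostly in the lower left, where both tumour livers are below the tumour-free mean, while genes of DNA replication and mitosis and of fatty acid oxidation lie on opposite sides in the 2 livers.

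Genes of sterol synthesis and uptake were the group most often low in both tumour livers among the 25 gene lists of pathways and RNA quality. Of 24 members tested, 20 were below all 3 tumour-free livers in both tumour livers (83.3%, against 8.29% of all genes), and 0 were above. The median log2 ratio of the list was -0.97 in RD tumour 1 and -0.82 in RD tumour 2, against -0.04 and -0.02 over all genes tested. At an unadjusted p under 0.05, 13 members were lower (54.2%, against 2.18% of all genes), and 0 passed the adjusted threshold with edgeR or with DESeq2. Genes of this list were already known to be lower in the hepatocyte-like nuclei of these tumour livers when the list was chosen, so the count is not independent evidence of the direction. Leaving out any 1 of the 5 livers gave 20 to 22 members below the range, but fewer livers make the range easier to pass, so this count could hardly fall. With library totals in place of TMM it was 15.

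The upstream regions of 3 members are shown because the list is known to share control elements. Matching by symbol, 16 of the 24 genes had a promoter window in the RefSeq table used here (GRCm38.p6; 250 bases before the start to 50 after). Only the 250 bases before the start are printed, 5′ to 3′ on the gene's strand. Capitals mark matches, on either strand, to the sterol element TCACNCCAC and to the CCAAT box (ATTGG when it lies on the other strand). Hmgcs1 (chr13:119690101-119690350, plus strand) encodes HMG-CoA synthase, which opens the pathway. Msmo1 (chr8:64733579-64733828, minus strand) encodes a methyl sterol oxidase of its late part. Insig1 (chr5:28071162-28071411, plus strand) encodes the sterol-sensing brake on SREBP2 and was 1 of the 4 members that were not below the range.
Hmgcs1: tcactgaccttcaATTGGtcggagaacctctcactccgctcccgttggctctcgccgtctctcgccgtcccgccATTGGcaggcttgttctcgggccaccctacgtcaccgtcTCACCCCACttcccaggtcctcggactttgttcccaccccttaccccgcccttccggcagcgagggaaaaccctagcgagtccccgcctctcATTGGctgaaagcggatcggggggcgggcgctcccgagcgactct
Msmo1: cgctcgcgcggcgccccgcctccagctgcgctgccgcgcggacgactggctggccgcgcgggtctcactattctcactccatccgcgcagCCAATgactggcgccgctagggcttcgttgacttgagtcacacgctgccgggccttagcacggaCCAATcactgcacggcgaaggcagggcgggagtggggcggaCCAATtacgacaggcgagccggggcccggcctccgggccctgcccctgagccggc
Insig1: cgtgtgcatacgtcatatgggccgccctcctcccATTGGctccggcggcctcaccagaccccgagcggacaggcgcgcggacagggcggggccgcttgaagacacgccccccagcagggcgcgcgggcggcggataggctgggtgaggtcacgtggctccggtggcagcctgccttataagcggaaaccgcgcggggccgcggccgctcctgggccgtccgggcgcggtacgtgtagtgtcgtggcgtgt
The sterol element begins 137 bases before the start of Hmgcs1 and was found in 1 of the 16 windows (6.25%), against 388 of 27025 genes with a window (1.44%). A CCAAT box was found in 16 of 16, against 41.1% of all genes with a window, and it was present in Insig1 as well as in the members that were low. The matches printed in capitals do not overlap each other. They describe letters in these windows and are not evidence of binding.

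Along the pathway, Hmgcs1 was at 22.1 and 30.6 CPM in RD tumour 1 and 2, against 63.6, 60.05 and 72.6 in RD no tumour 1, 2 and 3. Its fitted log2 fold change, tumour against no tumour, was -1.31 ± 0.43 (SE). The 2 tumour livers were close to each other and below every tumour-free liver. Idi1, which interconverts the isoprenoid building blocks, was at 5.89 and 17.9 CPM against 44.6, 81.0 and 34.3 (log2 fold change -2.16 ± 0.68). Fdft1, the squalene synthase that commits carbon to sterols, was at 11.4 and 16.2 CPM against 39.5, 35.7 and 67.0 (-1.78 ± 0.46). Sqle, the squalene epoxidase, was at 13.3 and 15.1 CPM against 71.4, 47.0 and 30.9 (-1.81 ± 0.68). None of these genes overlapped between the groups, and Idi1 had the widest distance between the 2 tumour livers of those named. Fdft1 and Sqle were chosen for their gap between the groups.

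Msmo1, of the late part of the pathway, was at 29.7 and 34.3 CPM in the tumour livers against 89.6, 124.1 and 100 in the tumour-free livers (log2 fold change -1.71 ± 0.45). Srebf2, which encodes SREBP2 itself, was at 40.1 and 70.5 CPM against 75.2, 89.6 and 89.3. The 4 members not below the range in both tumour livers included Mvk, Hsd17b7 and Insig1. Insig1 was at 74.6 and 51.8 CPM against 36.6, 69.2 and 49.7, so that the groups overlapped.

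Over the whole list, summed CPM (here without TMM scaling) was 722.3 in RD tumour 1 and 892.0 in RD tumour 2, against 1317, 1630 and 1337 in the tumour-free livers. The summed level of genes that mark hepatocyte identity was also lower in both. It was 32770 and 41800 CPM against 52440, 52240 and 47790. Their median log2 ratio was -1.10 in RD tumour 1 and -0.24 in RD tumour 2, with 5 of 33 members below the range in both (15.2%, against 8.29% of all genes) and 0 above. In RD tumour 2 the median of the sterol list was thus lower than that of the hepatocyte list, whereas in RD tumour 1 it was not. The part of hepatocyte content in the sterol result was not tested.

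**Figure D2:**
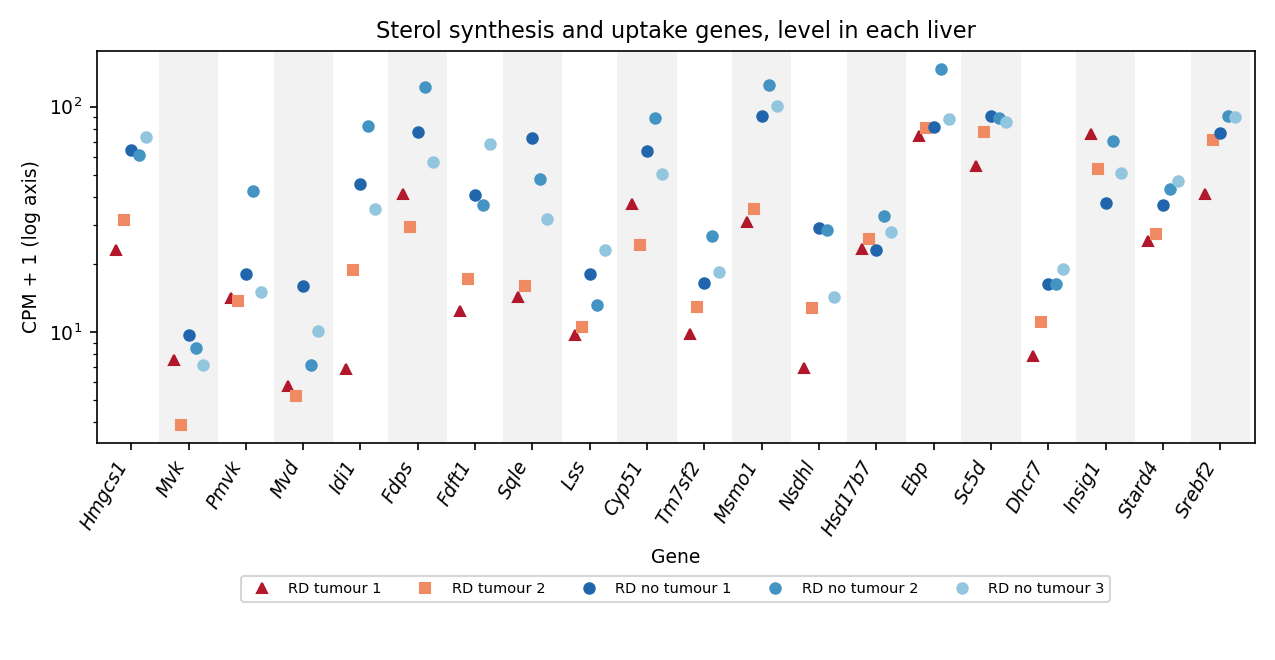
Level of 20 of the 24 sterol synthesis and uptake genes in each liver (CPM + 1, log axis; 1 point per liver, triangle RD tumour 1, square RD tumour 2, circles RD no tumour). Both tumour livers are below all 3 circles for the genes plotted other than Mvk, Hsd17b7 and Insig1.

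Among all genes with at least 10 CPM in some liver, the 15 with the widest gap above the tumour-free livers included Chka, Id genes and genes of contractile proteins. Chka (chr19:3851773-3894369, plus strand), the choline kinase that starts phosphatidylcholine synthesis, was the most abundant of them. It was at 630.3 and 438.9 CPM in RD tumour 1 and 2, against 79.2, 128.7 and 106.7 in the tumour-free livers, a log2 fold change of 2.35 ± 0.32 (SE). Both tumour livers were well above every tumour-free liver, a gap for which the 15 were chosen. Its adjusted p was 0.612 with edgeR and 7.04e-07 with DESeq2. DESeq2 called 13 of these 15 genes, against 34 of all 19087 genes called higher, and edgeR called 0. The 15 were chosen by their gap in these same counts, so the calls are not independent evidence.

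The Id genes encode inhibitors of basic helix-loop-helix transcription factors and respond to BMP signals. Id2 was at 483.2 and 187.3 CPM in the tumour livers against 77.9, 96.1 and 66.1 in the tumour-free livers. Id3 was at 172.9 and 191.6 CPM against 75.5, 73.9 and 52.4. Id4 was at 11.9 and 4.71 CPM against 2.13, 2.00 and 2.13, and Id1, outside the 15, at 27.5 and 45.8 against 12.5, 17.8 and 15.3. All 4 family members were thus above the tumour-free range in both tumour livers, as were 7.3% of all genes. The fitted log2 fold changes were 1.27 ± 0.31 (Id1), 2.07 ± 0.40 (Id2), 1.44 ± 0.24 (Id3) and 1.99 ± 0.46 (Id4). For Id2, Id3 and Id4 the position follows from the choice of the 15. Id1 was named outside the rules for choosing genes, so the 4 are not independent evidence. Of other BMP targets, Smad6 was also above the range, at 52.9 and 59.0 CPM against 43.2, 37.6 and 31.8. Smad7 lay on opposite sides of it, at 41.8 and 133.6 against 93.7, 118.0 and 73.5, and Hamp, the hepcidin gene of iron control, was below 2 of the tumour-free livers in RD tumour 1 (1909 CPM) and above all in RD tumour 2 (4027), against 772.8, 2490 and 2292. Smad6, Smad7 and Hamp were chosen after their values were seen.

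Cpe, which encodes a peptide-processing carboxypeptidase, was at 19.5 and 6.44 CPM in the tumour livers against 1.12, 0.50 and 0.51. Gpnmb, a glycoprotein of lipid-laden macrophages, was at 35.0 and 12.2 CPM against 3.28, 2.50 and 1.11. Prom1, a membrane protein of progenitor and ductular cells, was at 22.2 and 11.3 CPM against 3.88, 1.36 and 1.18. In all 3, RD tumour 1 was highest, and the groups did not overlap, as the choice of the 15 requires. Tubb2a, a tubulin, was nearly level in both tumour livers at 68.3 and 70.3 CPM against 16.1, 25.9 and 22.5. The small heat shock gene Hspb1 was similar in both, at 18.4 and 17.9 CPM against 3.02, 7.77 and 2.13. Cdc42ep5, Mgp and Sytl5 completed the 15, with 10.2 to 36.4 CPM in the tumour livers and 1.69 to 13.04 in the tumour-free livers.

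**Figure D3:**
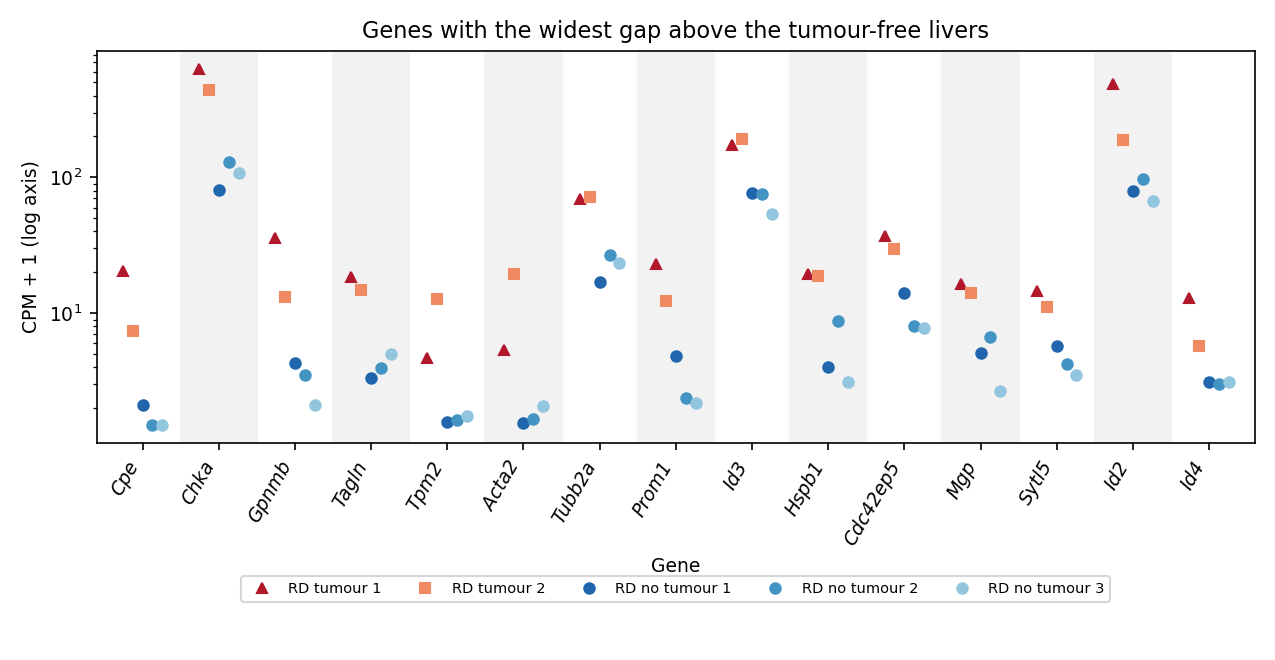
Level of the 15 genes with the widest gap above the tumour-free livers, by liver (CPM + 1, log axis; 1 point per liver). Triangle and square, the 2 tumour livers, lie above all 3 circles for every gene, as the choice of the genes requires; Tpm2 and Acta2 are higher in RD tumour 2, Chka, Cpe, Gpnmb and Id2 in RD tumour 1.

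Of the 15 genes, 3 encode contractile proteins of stellate and smooth muscle cells. Acta2, alpha smooth muscle actin, was at 4.38 and 18.3 CPM against 0.56, 0.68 and 1.08, and Tpm2, a tropomyosin, at 3.67 and 11.7 against 0.59, 0.64 and 0.74. Tagln, another actin-binding protein of these cells, was at 17.4 and 13.7 CPM against 2.33, 2.95 and 4.05. Of 33 matrix and fibrosis genes tested, 7 were above the range in both tumour livers (21.2%, against 7.3% of all genes) and 0 below: Acta2, Tagln, Mmp2, Lox, Loxl1, Col5a2 and Lama2. The list's median log2 ratio was 1.03 in RD tumour 1 and 0.39 in RD tumour 2, but its summed CPM, at 1050 and 1331 against 1774, 1006 and 950.9, lay within the tumour-free range. The classical collagen gene Col1a1 was not among them, at 11.1 and 1.63 CPM against 1.84, 0.73 and 0.41. The count was 22 without RD tumour 2, 13 without RD tumour 1 and 19 without RD no tumour 1. Markers of stellate cells as a whole did not stand apart, with 0 of 12 above the range and a summed CPM of 494.5 and 1197 against 1110, 803.4 and 461.2.

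Markers of cholangiocytes, the cells of the bile ducts and of ductular reactions, showed 5 of 12 members above the range in both tumour livers (41.7%, against 7.3% of all genes) and 0 below. Krt19, the keratin that defines them, was at 2.16 and 4.47 CPM against 0.82, 0.50 and 0.30. Sox9, their transcription factor, was at 13.9 and 13.2 CPM against 6.90, 7.86 and 6.05. Ehf was at 2.93 and 4.15 CPM against 0.85, 0.82 and 0.64, and Epcam and Cdh1, both adhesion proteins of epithelia, were the other 2. These are low levels, resting on 73 to 135 UMIs per tumour liver for Krt19, Epcam and Ehf. The summed level of the 12 markers lay on opposite sides of the range, at 232.4 and 574.1 CPM against 551.9, 347.6 and 339.6. It was thus below the range in RD tumour 1 and above it in RD tumour 2. No marker list of the 16 cell types examined had a summed level beyond the tumour-free range on the same side in both tumour livers. The sums of cholangiocyte and of acinar pancreas markers lay beyond it on opposite sides. When only nuclei with at least 1000 detected genes were summed, the hepatocyte marker list was below the range in both. Without RD tumour 1, 8 cholangiocyte markers were above the range.

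Secreted liver proteins and genes controlled by growth hormone were among those low in both tumour livers. Crp, an acute-phase gene, was at 96.7 and 167.4 CPM against 594.4, 389.4 and 502.7, a log2 fold change of -1.91 ± 0.40 (SE). Slco1a1, a male-predominant transporter of organic anions, was at 118.1 and 93.4 CPM against 256.2, 322.3 and 442.8 (-1.69 ± 0.35). Crp, Slco1a1 and Prom1 each overlap a numbered gene model on the same strand, with which reads could be shared. The groups did not overlap for Crp or Slco1a1, which are among the 15 genes chosen for the widest gap below the tumour-free livers. DESeq2 gave them adjusted p-values of 0.00196 and 0.00601, where edgeR gave 0.612 for both. Igf1, the growth factor that the liver secretes in response to growth hormone, was at 338.8 and 440.4 CPM against 839.9, 607.6 and 655.2. Igfals, its partner in serum, was at 13.6 and 19.5 CPM against 32.3, 20 and 48.9, so that RD tumour 2 and RD no tumour 2 were nearly equal.

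Of 27 genes dependent on growth hormone or sex, 5 were below the range in both tumour livers (18.5%, against 8.29% of all genes) and 0 above: Slco1a1, Igf1, Igfals, Cyp2d9 and Mup10. The list's median log2 ratio was -2.25 in RD tumour 1 and -0.44 in RD tumour 2. Its count was 20 without RD tumour 2, 14 without RD no tumour 1 and 3 when libraries were scaled by their totals instead of by TMM. Of 26 acute-phase genes, 5 were below in both (19.2%) and 0 above: Crp, Serpina3k, Serpina3m, Saa4 and Il1r1. Serpina3k and Serpina3m overlap on the same strand and are close copies, so their counts may not be independent. The acute-phase count was 13 without RD tumour 1, 8 without RD tumour 2 and 11 without RD no tumour 2. The median log2 ratio of this list was lower in RD tumour 2 (-1.04) than in RD tumour 1 (-0.31), the reverse of the order in the growth hormone list. RD no tumour 1, with a summed 63790 CPM of acute-phase genes against 12670 and 16480 in the other tumour-free livers, raised the tumour-free mean. The same sum was 20090 CPM in RD tumour 1 and 14490 in RD tumour 2, both within the tumour-free range. For the growth hormone list it was 1184 and 8894 CPM against 5688, 12280 and 11300, so RD tumour 2 lay within the range.

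The 15 genes with the widest gap below the tumour-free livers also held Msmo1, Fdft1 and Sqle. Carmil1, a regulator of actin capping, was at 37.5 and 39.3 CPM against 138.3, 121.3 and 96.6. Dct, a melanin-pathway enzyme, was at 0.21 and 1.14 CPM against 3.71, 13 and 11.3, and R3hdml at 2.49 and 1.45 against 22.96, 5.77 and 92.6. For R3hdml the spread among the tumour-free livers was wide. Olfr695, Olfr698, Hyal5, Fhitos, Capn8, Calcr and Per3 completed the list. DESeq2 called 6 of the 15, against 30 of all 19087 genes called lower, and edgeR called 0. These 15 were likewise chosen by their gap in the same counts. Cyp7a1, the rate-limiting enzyme of bile acid synthesis, was below the range in both, at 6.69 and 105.6 CPM against 169.9, 333.0 and 393.6. Cyp2c50, a drug-metabolising cytochrome, was at 22.2 and 66.5 CPM against 119.8, 213.8 and 247.5. Of 23 bile acid genes, 2 were below in both (8.7%, close to the 8.29% of all genes) and 0 above. Of 33 drug-metabolism genes, 5 were below (15.2%, against 8.29%) and 2 above (6.06%, against 7.3%).

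Of the 17 circadian clock genes, some were above and some below the range in both tumour livers, and their pattern by place in the feedback loop was not tested. Arntl, which encodes the activator BMAL1, was at 100 and 128.6 CPM in RD tumour 1 and 2, against 18.6, 67.6 and 42.6 in the tumour-free livers. Nfil3, a repressor of the output genes that have a D-box, was at 69.3 and 46.8 CPM against 27.4, 35.6 and 26.9. Clock, the partner of BMAL1, was at 187.2 and 187.9 CPM against 92.04, 176.2 and 144.9, a narrow gap. On the other side, Per3, a period gene of the repressor arm, was at 8.20 and 11.1 CPM against 42.6, 38.8 and 22.4. Tef was at 50.6 and 48.9 CPM against 73.4, 102.3 and 120.2, and Dbp at 9.14 and 3.01 against 13.6, 13.1 and 21.2; both are activators that bind D-boxes. In all, 3 of the 17 were thus above the range in both (17.6%, against 7.3% of all genes), 3 below (17.6%, against 8.29%) and 2 on opposite sides. The fitted log2 fold changes were 1.41 ± 0.50 (SE) for Arntl and -1.84 ± 0.71 for Per3, with an adjusted p of 0.612 for both by edgeR. Per3 lies on the same strand as Camta1 and overlaps it, so reads could be shared. Nr1d1 and Nr1d2, the REV-ERB repressors of Arntl, lay on opposite sides, with Nr1d2 at 118.3 and 26.1 CPM against 65.2, 59.6 and 72.6. Npas2, an alternative partner of BMAL1, was at 103.9 CPM in RD tumour 2, at 13.2 in RD tumour 1 and at 2.07, 1.09 and 13.2 in the tumour-free livers. The labels give no hour of sampling, and the part of sampling time in these values was not tested.

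The promoters of 2 clock genes, 1 high and 1 low in both tumour livers, are shown for the elements through which the loop is known to act. Capitals mark the ROR element TAGGTCA, which lies on the other strand, in Nfil3 (chr13:52981040-52981289, minus strand) and the D-box TTATGTAA in Per3 (chr4:151044666-151044915, minus strand), over the 250 bases before the start.
Nfil3: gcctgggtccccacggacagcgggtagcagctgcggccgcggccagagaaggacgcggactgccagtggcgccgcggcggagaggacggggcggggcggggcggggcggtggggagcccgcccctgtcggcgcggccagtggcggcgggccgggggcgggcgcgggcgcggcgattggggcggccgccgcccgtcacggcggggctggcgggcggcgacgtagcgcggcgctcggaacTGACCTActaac
Per3: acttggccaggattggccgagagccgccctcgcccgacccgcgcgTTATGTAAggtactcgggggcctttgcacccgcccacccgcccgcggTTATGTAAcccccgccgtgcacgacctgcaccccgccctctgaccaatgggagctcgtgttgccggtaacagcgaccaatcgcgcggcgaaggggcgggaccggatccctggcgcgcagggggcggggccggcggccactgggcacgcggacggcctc
The ROR element, to which REV-ERB and ROR receptors bind, was found in the full windows of 2 of 14 clock genes with one, Nfil3 and Arntl, against 2.97% of all genes with a window. The D-box was found in 1 of the 14, Per3, which holds it in 2 copies, against 1.11%. The E-box CACGTG, the site of BMAL1 and its partners, was found in 4 of 14 (28.6%) against 8.09%. Both strands were searched in every case, and the matches are a description.

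**Figure D4:**
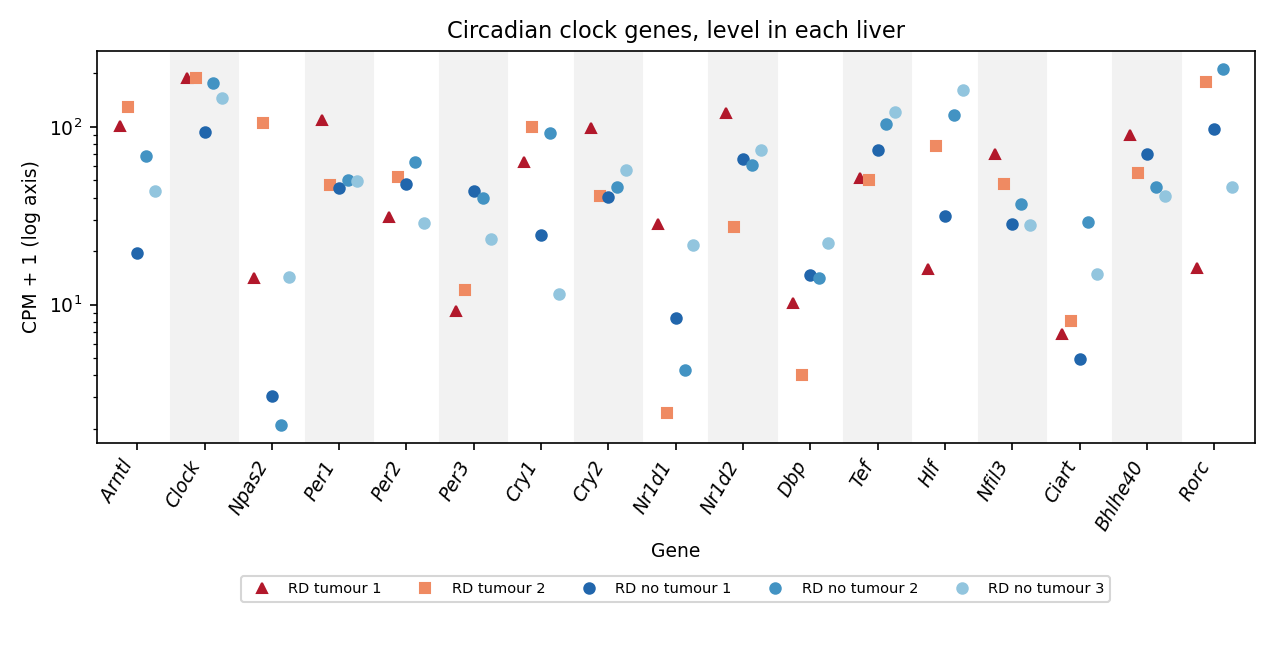
Level of the 17 clock genes in each liver (CPM + 1, log axis; 1 point per liver). Arntl, Clock and Nfil3 have both tumour livers above the 3 circles, and Per3, Tef and Dbp have both below.

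Other programmes differed between the 2 tumour livers. Of 36 genes of DNA replication and mitosis, 16 lay on opposite sides of the tumour-free range (44.4%, against 16.8% of all genes), and 1, the chromatin remodeller Hells, was above it in both. The list's median log2 ratio was 2.52 in RD tumour 1 and -0.60 in RD tumour 2. Mki67, the gene of the proliferation antigen Ki-67, was at 114.0 CPM in RD tumour 1 and 3.60 in RD tumour 2, against 27.0, 5.73 and 6.01. Top2a, a topoisomerase of dividing cells, was at 100.6 and 3.08 CPM against 40.9, 7.86 and 3.35. RD tumour 1 was the highest of the 5 livers and RD tumour 2 the lowest for both genes. Without RD tumour 2, 35 of the 36 were above the range, and without RD no tumour 1, 4 were.

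Fatty acid oxidation showed the opposite pattern. Of 25 genes tested, 10 lay on opposite sides of the range (40.0%), 0 were above in both and 0 below, and the median log2 ratio was -1.67 in RD tumour 1 and 0.44 in RD tumour 2. Cyp4a14, a target of the fasting-responsive receptor PPARalpha, was at 1.48 CPM in RD tumour 1 and 1027 in RD tumour 2, against 32.6, 499.0 and 1018. Fgf21, a fasting hormone, had 0 UMIs in RD tumour 1 and 74.4 CPM in RD tumour 2, against 4.47, 28.9 and 28.4. Plin2, the coat protein of lipid droplets and a gene of the lipid storage list, was at 79.8 and 416.7 CPM against 169.0, 235.5 and 153.2. In each case RD tumour 2 was the highest of the 5 livers and RD tumour 1 the lowest. Fgf21 and Plin2 were picked for lying on opposite sides of the range. Of 26 Wnt-target and pericentral genes, 5 were on opposite sides (19.2%, near the 16.8% of all genes): Axin2, Tbx3, Notum, Rnf43 and Sp5, each higher in RD tumour 2. In the same list Ccnd1 and Oat were above the range in both (7.69%, near the 7.3% of all genes), and Lect2 and Ahr below (7.69%, near 8.29%). Glul, a Wnt target that marks pericentral hepatocytes and some tumours, was at 71.6 and 206.5 CPM against 198.3, 264.7 and 276.2.

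Immune markers were also uneven. C1qa, a complement gene of macrophages, was at 766.2 CPM in RD tumour 1 and 63.8 in RD tumour 2, against 126.8, 78.0 and 32.4. Trem2, a receptor of lipid-associated macrophages, was at 11.9 and 1.35 CPM against 6.24, 2.68 and 0.95, and Clec4f, a Kupffer cell gene, at 32.6 and 100.5 against 89.4, 155.2 and 83.3. Only RD tumour 1 was outside the tumour-free range for these 3 genes. Neutrophil markers summed to 3011 CPM in RD tumour 1 and 124.7 in RD tumour 2, against 1007, 57.1 and 34.4, so RD no tumour 1 was also above the other tumour-free livers. Of 19 T and NK cell markers tested, 4 were below the range in both tumour livers (21.1%, against 8.29%) and 1, Gzmk, above. Those below were Themis, at 5.06 and 10.7 CPM against 43.0, 14.4 and 22.8, and Cd3e, Cd8a and Cd8b1, all under 5 CPM in each of the 5 livers. Cd3e, a chain of the T cell receptor complex, rested on 75 and 62 UMIs in the tumour livers. Its gap was narrow, at 2.22 and 2.15 CPM against 4.30, 2.41 and 2.30, as was that of Cd8b1. The summed CPM of the T and NK cell list was 179.5 and 447.4 against 313.0, 541.7 and 450.9, so RD tumour 2 lay within the range.

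**Figure D5:**
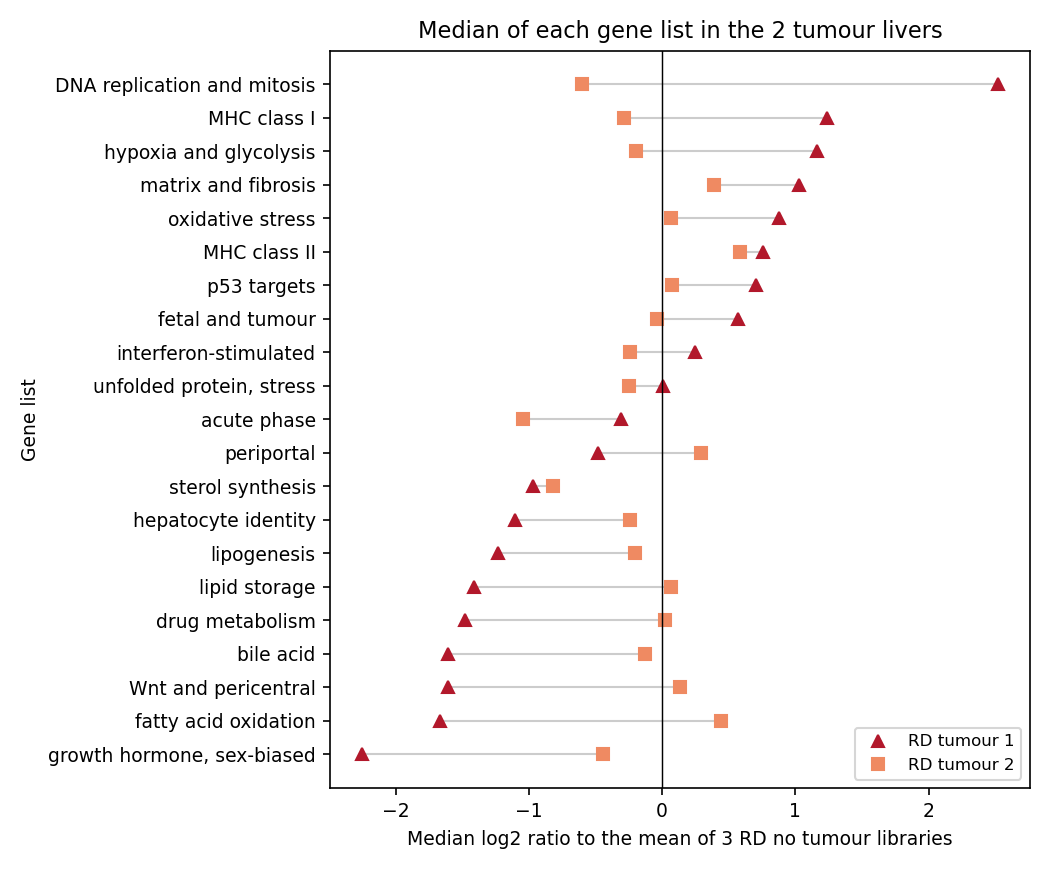
Median log2 ratio to the mean of the 3 RD no tumour livers for 21 gene lists, in RD tumour 1 (triangles) and RD tumour 2 (squares), joined by a line for each list. The 2 livers are close for sterol synthesis and MHC class II and far apart for DNA replication and mitosis, fatty acid oxidation and the growth hormone list; no error is drawn, since each point is 1 liver.

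Genes used as markers of HCC did not separate the groups as a set. Afp, the fetal albumin relative used as a serum marker, was at 8.28 and 6.86 CPM against 19.1, 7.41 and 31.5, and Gpc3, a fetal surface proteoglycan, at 3.58 and 4.95 against 3.81, 3.55 and 2.26. Both overlapped between the groups. Of 23 fetal and tumour genes tested, 4 were above the range in both tumour livers (17.4%, against 7.3%) and 1 below. The 4 were Prom1, Sox4, Tspan8 and Igf2bp2. Sox4, a progenitor transcription factor, was at 7.04 and 3.08 CPM against 2.79, 1.36 and 1.28, and Tspan8, a tetraspanin of epithelia, at 4.53 and 8.24 against 2.96, 2.32 and 1.52. Ccnd1, the cyclin that drives entry into the cell cycle, was at 31.1 and 9.87 CPM against 7.75, 5.64 and 4.97, above the range in both.

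Each tumour liver also had genes that were far lower in the other 4 of these livers. In RD tumour 1, the kinase gene Stk32a was at 97.3 CPM against at most 1.25 in the other 4, Bex3 at 162.7 against at most 3.48, and Pax3, a developmental transcription factor, at 47.4 against at most 1.02. Tbx15 and Pou3f3, also developmental transcription factors, Spaar, Htra4 and Hist1h2ap were the other 5 of the 8 with the widest gap. None of these was near that level in RD tumour 2, where Pax3 had 1 UMI. Outside these 5 livers, WD tumour 2 held Stk32a at 52.3 CPM, Hist1h2ap at 31.7 and Htra4 at 14.7, against 97.3, 205.8 and 167.7 in RD tumour 1. In RD tumour 2, 4 of the 8 genes with the widest gap encode pancreatic enzymes. Pnliprp1, a pancreatic lipase relative, was at 32.9 CPM against at most 0.10, and the elastase Cela1 at 117.5 against 3.22 to 9.55. Cela2a and Ctrl were the others, and Zg16, Npas2, Chrm3 and St18 made up the 8. The summed level of 18 acinar pancreas markers was 599.0 CPM in RD tumour 2 against 4.34 to 10.6 in the other 4. Only 4 of the 18 passed the filter on low counts for the fit, and the part of pancreatic RNA in the other values of RD tumour 2 was not tested.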

How the data were processed

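Nuclei of 8 snap-frozen mouse livers, 1 library per mouse, were sequenced with the Chromium single cell 3′ v3.1 chemistry, per the labels' protocols. The authors deposited, for each library, the unnormalized counts of UMIs by gene and by barcode, made with Cell Ranger 7.0.0 on the build mm10, per the submitters' processing notes. How intronic reads were treated and barcodes called is not given in the sources used here. Counts were summed per library over barcodes with at least 300 detected genes, without removal of doublets or of free RNA. Sums of all 8 libraries were fitted in a model of the 3 groups (5 residual degrees of freedom; TMM; filterByExpr) with the quasi-likelihood F test of edgeR 4.0.16 in R 4.3.3, with Benjamini-Hochberg adjustment at 0.05. DESeq2 1.42.0 was an alternative. The fit was tested on simulated data. There every gene had the same setting for the spread between mice, and no library stood apart as RD tumour 1 does here. P-values set the difference between the groups against the spread between mice, which was estimated from all 8 libraries. Levels are TMM-scaled CPM, and log2 ratios use a pseudocount of 1 CPM.

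Named genes were the 15 in each direction with the widest gap between the groups and at least 10 CPM in a liver, up to 3 per list and direction, up to 2 per list on opposite sides, 8 per tumour liver with the widest gap over the other 4, and 12 genes of interest. Numbered gene models and mitochondrial, ribosomal and pseudogene symbols were left out of the first and the fourth. Further members are named where a count of a list is given. The comparison, the gene lists and the members were chosen with earlier results of these data known. Of 768 list entries, 763 were found in the files. Gene positions are from GENCODE M21 (GRCm38) and promoter sequences from RefSeq (GRCm38.p6). Some members of the gene lists are counted but not reported here by name.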

Additional observations from a re-analysis of the deposited data

How the results depend on the processing

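The limits include the number of livers, with 2 tumour livers that differ from each other, 1 of them with 20000 barcodes, and depth for genes under about 5 CPM, which rest on few UMIs. Other normalizations, barcode filters and sets of libraries in edgeR called 0 genes. Without RD tumour 2 it called 2128 higher and 2441 lower, and without RD tumour 1 it called 11 higher and 0 lower, with the lone tumour liver assumed to vary like the livers of the other groups. DESeq2 called 34 higher and 30 lower. Leaving out each of the 8 livers gave 0 to 2128 genes called higher and 0 to 2441 lower, 1385 to 7492 above and 1524 to 7988 below the range, and, as members outside the range, 20 to 22 sterol genes, 5 to 8 cholangiocyte markers, 7 to 22 matrix genes, 4 to 20 growth hormone genes, 5 to 13 acute-phase genes and 1 to 35 genes of replication and mitosis. Fewer livers to exceed raises these counts by construction. The median absolute log2 ratio was 0.697 in RD tumour 1 and 0.202 in RD tumour 2, with ranges of 0.671 to 0.746 and 0.201 to 0.247 without each liver. It was 0.919 and 0.256 with a pseudocount of 0.1, 0.442 and 0.127 with a pseudocount of 5, and 0.390 and 0.131 with no filter on low counts. Growth hormone genes below the range numbered 3 when scaled by library totals, and sterol genes below it 15. With nuclei of at least 1000 detected genes, 1 marker list, hepatocytes, lay outside the range on the same side in both.

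The labels number the replicates within each group. Deviations from the group means correlated at 0.464 for the livers numbered 1 and 0.2 for those numbered 2 in these groups. They correlated at -0.381 to -0.607 for several same-numbered pairs with the WD tumour livers, and at 0.418 for RD no tumour 3 and WD tumour 3. In a group of 2 livers the deviations mirror each other, so these correlations cannot decide whether the numbers pair the mice. With the replicate number as a block, edgeR called 0 genes, 339 genes had an unadjusted p under 0.05, 5 sterol genes did (13 without the block), and the log2 fold change of Alb was 0.11, reversed from -0.16. Of 76 genes recomputed under up to 17 alternatives each, 18 of the resulting values changed sign and 59 passed the adjusted threshold, 22 of these with DESeq2, 36 without RD tumour 2 and 1 without RD tumour 1. Cyp4a14, at -0.01, was 0.17 with library totals, 0.30 with at least 1000 genes, 0.0496 with at most 5% mitochondrial UMIs, and ran from -8.46 without RD tumour 2 to 0.99 without RD tumour 1, with 0.94 without RD no tumour 3. Alb ran from -0.52 without RD no tumour 1 to 0.17 without RD no tumour 2, with 0.03 without RD no tumour 3. The lowest value, without RD tumour 1, and the highest over the left-out livers were -1.85 and 3.33 for Mki67, -2.50 and 3.22 for Top2a, -0.55 and 4.11 for Lgals3, -0.31 and 3.26 for C1qa, -0.49 and 6.47 for Bex3, -3.17 and 12.26 for Pax3 and -1.29 and 1.88 for Trem2. The lowest, without RD tumour 2, and the highest were -1.24 and 1.16 for Plin2, -0.26 and 11.73 for Pnliprp1 and -1.15 and 4.05 for Cela1. These are genes on which the 2 tumour livers differ or that do not separate the groups.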

Other observations

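Several further gene groups were measured in the same livers. Of 23 lipogenesis genes, 5 were below the tumour-free range in both tumour livers (21.7%, against 8.29% of all genes) and 1 above. Those below were Fasn, the fatty acid synthase, at 11.6 and 14.3 CPM in RD tumour 1 and 2 against 16.5, 28.9 and 23.9 in the tumour-free livers, and Scd1, Elovl6, Tkfc and Pklr. Dgat1, which makes triglyceride, was the 1 above, at 45.8 and 32.2 CPM against 24.4, 26.7 and 19.2. Of 20 lipid storage genes, Hilpda and Lpl were above in both (10%, near the 7.3% of all genes), 0 were below, and 5 lay on opposite sides (25%, against 16.8%), among them Plin2 and G0s2. Hilpda, an inhibitor of lipolysis, was at 29.4 and 17.1 CPM against 10.1, 6.86 and 4.29, and the lipase Lpl at 63.4 and 25.03 against 14.1, 12.4 and 15.6. Irs2, an adaptor of the insulin receptor that was chosen after its values were seen, was at 212.1 and 114.6 CPM against 65.8, 45.9 and 29.4.

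Among p53 targets, Cdkn1a, Bbc3 and Plk2 were above the range in both tumour livers, Polk and Cdkn2b were below, and 3 lay on opposite sides, Ccng1 and Phlda3 among them (16.7%, 11.1% and 16.7% of 18, against 7.3%, 8.29% and 16.8% of all genes). The summed CPM of the 18 genes was 997.8 and 609.2 against 563.0, 548.5 and 534.3. Cdkn1a, the cell cycle inhibitor p21, was at 113.3 CPM in RD tumour 1 and at 36.4 in RD tumour 2, just above the 12.2, 33.6 and 31.5 of the tumour-free livers. Of 18 hypoxia and glycolysis genes, Ldha was above in both, Pdk1 was below in both, and 4 lay on opposite sides (5.56%, 5.56% and 22.2%, near the 7.3%, 8.29% and 16.8% of all genes), among them Gapdh, at 585.4 and 101.0 CPM against 118.9, 122.7 and 103.6. The MHC class I genes H2-K1 and B2m were highest of the 5 livers in RD tumour 1 and lowest in RD tumour 2.

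The WD tumour livers also carried HCC, and their values for genes high in both RD tumour livers are given without a test. Chka was at 131, 168 and 124 CPM in WD tumour 1, 2 and 3, Id3 at 41.6, 44.0 and 47.3, and Acta2 at 0.58, 0.25 and 0.48. Of the 15 genes with the widest gap above the tumour-free livers, 13 were lower in all 3 WD tumour livers than in either RD tumour liver. The exceptions were Gpnmb, at 15.4, 4.36 and 30.3 CPM, and Sytl5, at 10.9, 12.7 and 17.6. Lpl, outside the 15, was at 32.7, 78.9 and 64.3 CPM in the WD tumour livers, which overlapped with the RD tumour livers. These genes were chosen after their values were seen. Because the 15 were picked for high levels in the RD tumour livers, the count of 13 follows in part from that choice. The same count was not made over all genes.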
